A study of Arabidopsis thaliana with 14 samples.

Results

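Auxin response factors (ARFs) are the transcription factors through which the hormone auxin acts on gene expression, and DNA methylation is described here for 10 of the Arabidopsis genes that encode them: ARF1 to ARF8, ARF10 and ARF19. They were listed by locus and no measured value entered the rule, although earlier results of these data were known. All 10 lie outside the group of seed-expressed ARF genes near the centromere of chromosome 1. ARF9, ARF11, ARF16, ARF17 and ARF18 also lie outside that group and were counted apart. Their loci are AT1G59750 (ARF1), AT5G62000 (ARF2), AT2G33860 (ARF3), AT5G60450 (ARF4), AT1G19850 (ARF5), AT1G30330 (ARF6), AT5G20730 (ARF7), AT5G37020 (ARF8), AT2G28350 (ARF10) and AT1G19220 (ARF19). They are 10 of 27432 nuclear protein-coding genes. All windows overlapping a gene body were taken, which gave 255 of 595735 window positions of the nuclear genome. A window is a stretch of 300 nt, windows start every 200 nt, and neighbours therefore overlap. Its methylation level is the percent of cytosine calls that were methylated, where a call is 1 read over 1 cytosine. Where calls were pooled over all windows of a gene, those in the overlap of neighbours counted in both windows.

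Whole-genome bisulfite sequencing was carried out on embryo and endosperm dissected from seeds 6 days after pollination. The plants were the strains Col, Ler and Cvi, each selfed, and the F1 hybrids of Cvi with Col and with Ler in both directions. In a cross the mother is named before the father, so that Col x Cvi has a Col mother. No treatment or transgene is named in the labels. The 7 crosses gave 1 embryo and 1 endosperm library each, made from pooled seeds, so each of the 14 groups holds 1 library, no value has a replicate error, and each test below compares 2 libraries and not 2 strains or tissues.

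ARFs bind auxin response elements in promoters. When auxin is low, Aux/IAA proteins hold ARFs in complexes with TOPLESS co-repressors. Auxin bound to the receptors of the TIR1/AFB family leads to the breakdown of Aux/IAA proteins and frees the ARFs. ARF5, ARF6, ARF7, ARF8 and ARF19 are known as activators, and ARF1, ARF2, ARF3, ARF4 and ARF10 are placed with the repressor class. Many plant genes carry methylation of CG sites within their transcribed part, kept through replication by MET1. Methylation in the CHG and CHH contexts, where H is any base but G, relies on other enzymes and marks mainly transposons and other silent sequence.

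The depth set what could be compared. Of all libraries, the Col x Col endosperm held the fewest counted CG calls, 214040. Its counts covered 8430 windows but its deposited unweighted window means 311463, so its depth is unknown. The Cvi x Cvi embryo held 8096343 CG calls over all windows, and the deepest library, the Ler x Cvi embryo, 62566453. Within the members, CG calls per gene ranged from 1030 to 1880 in the Col x Col embryo and from 168 to 380 in the Cvi x Cvi embryo. The Ler x Ler endosperm gave 119 to 317 calls per member and the Cvi x Cvi endosperm 385 to 1126. The other endosperms except that of Cvi x Ler had between 0 and 49 calls per member, and they enter no comparison of levels. The Cvi x Ler embryo stood apart. Over 400 kb around each member, its CG profile correlated with that of the Ler x Cvi embryo at 0.43 to 0.59, whereas the other libraries examined gave 0.70 to 0.92 (Pearson's r across windows of shared sequence, as a description). Around ARF4 its profile matched better at another place within 500 kb (0.49) than at its own (0.43), and its values are given apart. Methylation data hold no expression of marker genes, and the tissue labels were not checked in that way.

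CG methylation of the ARF genes lay in the middle and 3′ part of the gene body and was nearly absent at the gene start. Pooled over the 10 genes, with each gene divided into 5 equal segments from its start, segment 1 had 0.128% in the Col x Col embryo (4 of 3122 calls), segment 2 had 29.5%, segment 3 had 54.3%, segment 4 had 59.9% and segment 5 had 29.5%. The Ler x Ler embryo followed the same course with 0.248%, 14.6%, 55.7%, 46.5% and 23.9%. Pooled in this way, the Cvi x Cvi embryo had 0.105% (1 of 953 calls), 4.72%, 29.5%, 21.8% and 6.67%, lower than Col and Ler after segment 1. It covered fewer windows, with 26 in segment 3 against 49 in Col. Of its 114 methylated calls in segment 3, 70 were in ARF7 (of 110 calls) and 40 in ARF6 (of 72). The pooled level is thus not that of each gene. The gene starts were near 0 in all 3 strains, and the pooled levels separated further inside the gene.

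**Figure D1:**
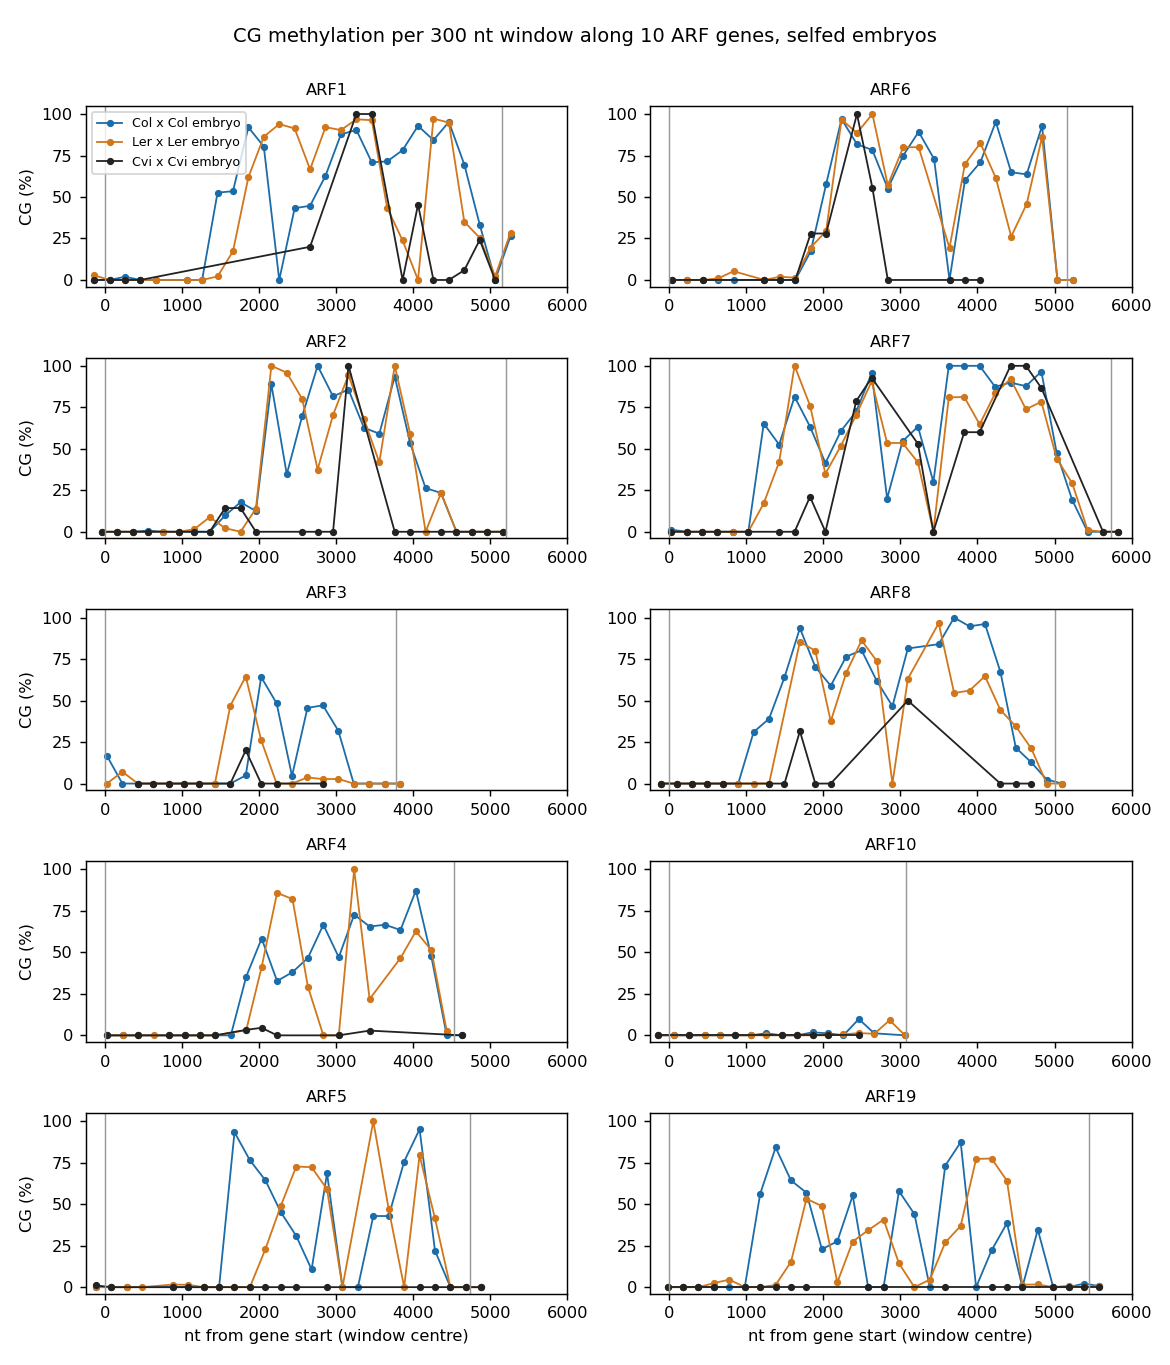
CG methylation (percent of calls, y axis) of each 300 nt window along the 10 ARF genes against the distance of the window centre from the gene start (nt, x axis) in the selfed embryos of Col, Ler and Cvi, with grey lines at the gene start and end. Lines join covered windows only. Windows centred in the first 1000 nt stay under 10% except for 1 of ARF3 with 1 of 6 calls methylated, and the Cvi line stays at or near 0 along ARF5 and ARF19 but reaches 100% in windows of ARF1, ARF2, ARF6 and ARF7.

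ARF10 was the exception among the members. It is a target of microRNA miR160 and belongs to the repressor class. Its CG level was 1.16% in the Col x Col embryo (15 of 1289 calls), 0.285% in the Ler x Ler embryo (5 of 1757) and 0 of 168 calls in the Cvi x Cvi embryo. Its level was at most 2.61% in any of the 7 embryo libraries. It is also the shortest of the 10 genes, with 3069 nt (chr2:12113889-12116957), and the other 9 span 3773 to 5735 nt.

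The comparison of the selfed embryos asked how far the 3 strains differ in methylation at these genes. Against the Cvi x Cvi embryo, 8 of 10 ARF genes had higher CG methylation in the Col x Col embryo and 7 of 10 in the Ler x Ler embryo, and none had lower. A gene was called when the calls of every second window (so that no window overlapped another) differed by at least 10 percentage points at an adjusted p under 0.01 (Fisher's exact test, two-sided, Benjamini-Hochberg adjustment over all protein-coding genes tested). Of all genes tested, 22.3% were called higher in Col and 2.39% higher in Cvi, and for Ler 22.5% were called higher and 2.75% lower than Cvi. The median difference over the members was 23.6 points for Col minus Cvi and 17.7 points for Ler minus Cvi, whereas over all genes it was 0.76 and 0.64 points. The median level of the members was 28.1% in Col and 27.8% in Ler, but that of all genes was 2% and 1.53%. Most genes thus had little CG methylation that could exceed Cvi, and genes of like level were not compared. Both comparisons share the Cvi x Cvi embryo.

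**Figure D2:**
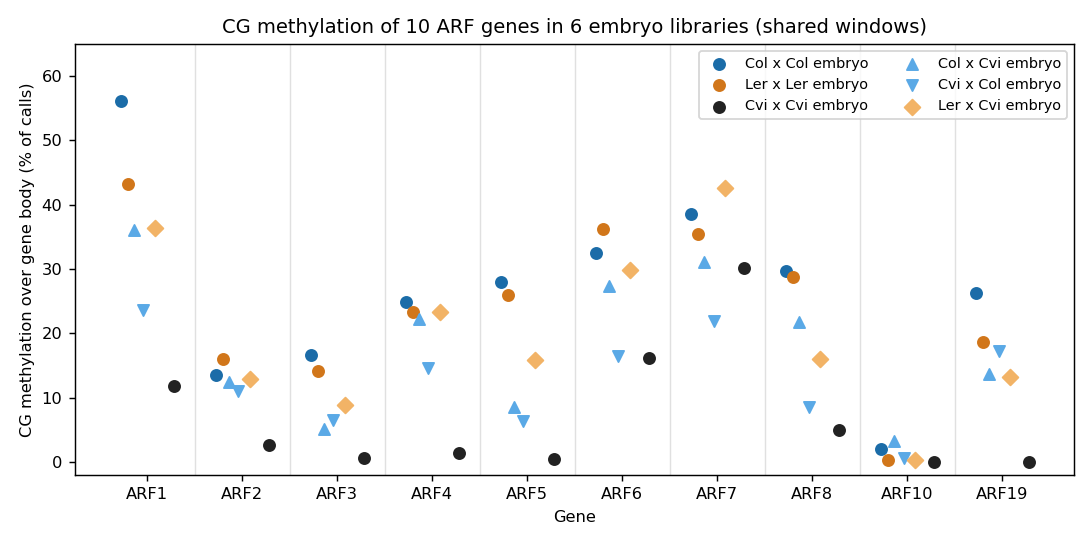
CG methylation over the gene body (percent of calls, y axis) of the 10 ARF genes (x axis) in 6 embryo libraries, over windows covered in all 6, with 1 point for each library. Points have no error bars because each group is 1 library, and the Cvi x Cvi embryo (black) is the lowest point for every gene but ARF7.

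Among the activators, ARF5 and ARF19 had almost no CG methylation in the Cvi x Cvi embryo. ARF5 (MONOPTEROS; chr1:6886669-6891404), which is needed to set up the root and the vascular tissue of the embryo, reached 25.5% in Col (95% Wilson interval 21.5 to 29.9%, 416 calls) and 19.8% in Ler (16.1 to 23.9%, 400 calls), against 0.602% in Cvi (1 of 166 calls, 0.106 to 3.33%). The adjusted p by the exact test was 4.52e-15 for Col against Cvi and 4.69e-11 for Ler against Cvi. ARF19 (chr1:6627683-6633133), which acts with ARF7 in lateral root formation, had 26.1% in Col (556 calls) and 25.4% in Ler (582 calls). In Cvi it had 0 of 122 calls, which allows a share of up to 2.46% (exact test, adjusted p = 1.80e-13 and 3.81e-13). Levels in Col and Ler differ between these pairs from those further down because each pair uses the windows covered in both of its libraries. Intervals, and the limits that a count of 0 allows (taken as 3 calls), reflect counting error alone, since neighbouring cytosines are read on the same molecules and PCR copies carry no molecular identifier.

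ARF6 and ARF8, a pair of activators that drive flower maturation and are both targets of miR167, took different courses. ARF8 (chr5:14629453-14634454) had 30.2% in Col (384 calls) and 30.2% in Ler (477 calls), against 3.77% and 4.196% in Cvi over the windows of each pair (exact test, adjusted p = 2.97e-12 and 1.86e-11). ARF6 (chr1:10685822-10690988) had 35.4% in Col (715 calls) and 34.2% in Ler (773 calls), and 19.7% in Cvi (13.9 to 27.2%, 137 calls). Its adjusted p by the exact test was 0.00136 against Col and 0.00273 against Ler. The call against Ler was lost when only windows wholly inside the gene were used (exact test, adjusted p = 0.0147).

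ARF7 (NPH4; chr5:7016445-7022179), an activator needed for phototropism and lateral roots, was methylated in all 3 strains. Col had 42.7% (773 calls) and Ler 38.4% (690 calls), against 31.6% in Cvi (26.1 to 37.8%, 237 calls). The difference of 11.05 points from Col was called (exact test, adjusted p = 0.00867), but not with the alternate set of every second window (exact test, adjusted p = 0.0466) or with windows wholly inside the gene (exact test, adjusted p = 0.0202). The difference of 6.76 points from Ler was not called (exact test, adjusted p = 0.188). The last 254 nt of ARF7 overlap the neighbouring gene CPN20, and windows there belong to both.

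Among the repressor class, ARF1 and ARF4 showed the widest gaps. ARF1 (chr1:21979289-21984433), which acts with ARF2 in ageing and organ shedding, had 63.4% in Col (306 calls) and 50.6% in Ler (265 calls), against 19.1% in Cvi (12.3 to 28.5%, 89 calls; exact test, adjusted p = 1.43e-12 and 9.32e-07). The Col-Cvi difference of 44.3 points exceeded that of 97.96% of all genes tested. ARF4 (chr5:24308255-24312784), which sets the lower side of leaves together with ARF3, had 32.5% in Col (338 calls) and 33.6% in Ler (244 calls), against 1.68% and 2.04% in Cvi (exact test, adjusted p = 3.41e-13 and 1.05e-10).

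ARF3 (ETTIN; chr2:14325206-14328978), which patterns the gynoecium, had 22.4% in Col (415 calls) and 16.2% in Ler (259 calls). In Cvi it had 0 of 104 calls, which allows up to 2.88% (exact test, adjusted p = 1.31e-09 and 2.01e-06). With the alternate set of every second window its differences were 5.44 points from Col (exact test, adjusted p = 0.216) and 9.85 points from Ler (exact test, adjusted p = 0.0320), and neither was called. ARF2 (chr5:24910191-24915395), whose loss gives larger seeds, was not called, at 13.3% in Col (787 calls), 10.8% in Ler (766 calls) and 4.17% in Cvi (168 calls). Its difference from Col, 9.18 points, had an adjusted p of 0.00137 by the exact test and missed only the minimum of 10 points. With the alternate set of windows it was called against Col (12.8 points, exact test, adjusted p = 2.73e-06) and against Ler (20.8 points, exact test, adjusted p = 4.41e-11).

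Single windows were tested by a stricter rule, which asked for at least 35 points and an adjusted p under 0.01 over all nuclear windows (Fisher's exact test), at least 3 CG cytosines in the reference and at least 15 calls in both libraries. Of 66 windows of the members that could be tested between Col and Cvi, 12 were called with Col above Cvi and 0 with Cvi above Col, where 10.2% and 1.49% of windows in all gene bodies were called. Of 65 tested between Ler and Cvi, 8 were called higher in Ler and 0 higher in Cvi, against 10.3% and 1.47%. The calls were in ARF1, ARF4, ARF6, ARF7, ARF8 and ARF19 for Col, with 2 windows in each, and in ARF1, ARF4, ARF6, ARF7 and ARF8 for Ler. ARF5, called at the level of the gene, had no called window. Its best covered methylated window (chr1:6890801-6891100) had 22.0% in Col (11 of 50), 41.4% in Ler (12 of 29) and 0 of 15 in Cvi (exact test, adjusted p = 0.302 and 0.0271). The counts depend on depth: with at least 30 calls required they were 3 and 1, and with the deeper library thinned to the shallower 2 and 1.

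For each gene the called window with the most calls in the shallowest of the 3 selfed embryos is described in full. In ARF1 it lay over exons 13 to 14 of 15 and an intron (chr1:21983401-21983700). It was methylated in 75 of 89 calls in Col (84.3%) and 35 of 36 in Ler (97.2%), but in 0 of 21 in Cvi, which allows up to 14.3%. Its 8 CG sites are capitals in the sequence, read on the strand of the gene from the TAIR10.1 genome as are all sequences here. The sites marked are thus those of the Col reference, and whether Ler and Cvi carry each of them was not checked. In ARF19 the rule gave chr1:6631801-6632100 (exons 4 to 5 of 12), with 56.3% in Col (36 of 64), 0 of 40 calls in Ler and 0 of 43 in Cvi. The window beside it was added after its values were seen (chr1:6631601-6631900, minus strand, exons 5 to 6 of 12, 7 CG sites). It separated the Col x Col embryo from both other selfed embryos, with 85 of 101 calls in Col (84.2%), 1 of 78 in Ler and 0 of 30 in Cvi. In the Cvi x Cvi endosperm, however, 9 of 16 calls were methylated there. The sequences are shown because these windows carry large differences between the selfed embryos.
ARF1 chr1:21983401-21983700: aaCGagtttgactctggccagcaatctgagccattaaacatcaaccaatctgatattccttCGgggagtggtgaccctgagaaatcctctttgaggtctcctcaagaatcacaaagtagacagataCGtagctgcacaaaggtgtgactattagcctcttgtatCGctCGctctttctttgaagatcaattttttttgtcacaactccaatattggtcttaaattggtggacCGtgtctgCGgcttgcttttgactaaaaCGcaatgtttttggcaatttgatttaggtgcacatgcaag
ARF19 chr1:6631601-6631900: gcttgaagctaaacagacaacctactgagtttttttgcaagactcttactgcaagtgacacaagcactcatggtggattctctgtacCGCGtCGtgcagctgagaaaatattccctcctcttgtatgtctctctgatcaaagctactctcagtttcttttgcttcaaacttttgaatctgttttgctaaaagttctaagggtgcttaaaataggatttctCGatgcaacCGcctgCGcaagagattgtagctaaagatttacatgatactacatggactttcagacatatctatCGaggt

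In ARF8, the window given by the same rule (chr5:14631001-14631300, exon 6 of 14) had 59 of 63 calls methylated in Col (93.7%) and 41 of 48 in Ler (85.4%), but 6 of 19 in Cvi (31.6%). In ARF4 (chr5:24309201-24309500, exon 10 of 12) the values were 65.6% in Col (40 of 61), 21.9% in Ler (7 of 32) and 2.86% in Cvi (1 of 35), so that Ler lay between the others. In ARF7 (chr5:7020001-7020300, exons 6 to 7 of 13) Col had 41.4% (29 of 70), Ler 35% (14 of 40) and Cvi 0 of 21. In ARF6 (chr1:10688201-10688500, exons 9 to 10 of 14) all 49 calls were methylated in Ler, 78.3% in Col (101 of 129) and 55.6% in Cvi (20 of 36).

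Cvi was highly methylated in short stretches of ARF6 and ARF7. The next window of ARF6 (chr1:10688401-10688700, minus strand, exons 8 to 9, 14 CG sites) was methylated in 20 of 20 calls in the Cvi x Cvi embryo, against 81.8% in Col (153 of 187) and 88.5% in Ler (116 of 131). In ARF7, the window at chr5:7019401-7019700 (minus strand, exons 9 to 10 of 13, 8 CG sites) was at 92.9% in Cvi (26 of 28), 95.5% in Col (64 of 67) and 90.7% in Ler (68 of 75). Windows of ARF1 and ARF2 with all calls methylated in Cvi had 5 or 6 calls. Just upstream in ARF7, at the window given above, Cvi had none in 21 calls. The low level of Cvi was therefore not uniform along these genes. Both windows, chosen after their values were seen, are shown with CG sites in capitals.
ARF6 chr1:10688401-10688700: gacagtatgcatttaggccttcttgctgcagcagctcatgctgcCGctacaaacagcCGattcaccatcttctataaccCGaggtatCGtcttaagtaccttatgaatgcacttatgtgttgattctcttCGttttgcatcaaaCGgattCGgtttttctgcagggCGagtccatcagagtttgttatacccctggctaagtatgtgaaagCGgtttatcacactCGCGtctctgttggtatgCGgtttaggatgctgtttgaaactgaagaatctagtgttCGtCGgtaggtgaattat
ARF7 chr5:7019401-7019700: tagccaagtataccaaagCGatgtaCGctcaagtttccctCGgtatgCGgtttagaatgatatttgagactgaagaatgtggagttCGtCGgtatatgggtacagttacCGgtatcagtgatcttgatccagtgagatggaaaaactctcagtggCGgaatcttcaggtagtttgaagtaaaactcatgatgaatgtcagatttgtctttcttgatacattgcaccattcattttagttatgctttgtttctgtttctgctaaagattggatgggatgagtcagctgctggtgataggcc

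Between Col and Ler, whole genes differed little, but methylated stretches lay at different places. No member was called at the level of the gene, where 9.03% of all genes had more in Col and 8.44% more in Ler. The differences ranged from -1.51 points in ARF2 to 7.91 points in ARF19 (exact test, adjusted p = 0.00294, under the minimum of 10 points). The median was 4.93 points, against 0 over all genes. With the alternate set of windows ARF1 was called higher in Col (16.1 points, exact test, adjusted p = 2.20e-07), and with windows wholly inside the gene ARF5, ARF8 and ARF19 were, at 10.6 to 11.4 points. Of 206 windows tested, 24 were called higher in Col and 9 higher in Ler, where 4.77% and 5.17% of windows in all gene bodies were called. The 9 windows higher in Ler were in ARF1, ARF2, ARF3, ARF4, ARF5 and ARF19, and each of these genes but ARF2 also held windows higher in Col.

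ARF5 showed this exchange most plainly. At chr1:6888401-6888700 (exons 6 to 7 of 13, 7 CG sites), 52 of 68 calls were methylated in Col (76.5%, 65.1 to 85.0%) and 0 of 61 in Ler, which allows up to 4.92% (exact test, adjusted p = 4.60e-20). Only 600 nt further, at chr1:6889001-6889300 (exons 9 to 10, 11 CG sites), the order was turned, with 30.9% in Col (38 of 123) and 72.7% in Ler (101 of 139; exact test, adjusted p = 3.27e-10). In Cvi both windows had 0 of 10 calls methylated in the embryo, and the endosperm, with more calls, had 0 of 52 and 0 of 91. The pair is shown with CG sites in capitals.
ARF5 chr1:6888401-6888700: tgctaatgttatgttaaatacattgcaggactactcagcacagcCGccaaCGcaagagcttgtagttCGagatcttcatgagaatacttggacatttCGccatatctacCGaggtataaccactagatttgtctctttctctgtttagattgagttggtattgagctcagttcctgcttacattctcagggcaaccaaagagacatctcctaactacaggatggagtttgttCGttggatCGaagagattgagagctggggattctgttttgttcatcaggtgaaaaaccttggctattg
ARF5 chr1:6889001-6889300: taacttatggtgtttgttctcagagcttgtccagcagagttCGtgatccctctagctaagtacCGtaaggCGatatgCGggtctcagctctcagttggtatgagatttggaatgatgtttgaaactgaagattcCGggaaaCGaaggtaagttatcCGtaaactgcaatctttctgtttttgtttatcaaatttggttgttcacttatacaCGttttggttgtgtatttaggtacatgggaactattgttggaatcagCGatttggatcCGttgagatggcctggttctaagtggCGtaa

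ARF3 and ARF19 held similar exchanges. By the rule, the ARF3 window was chr2:14326601-14326900 (exons 6 to 7 of 10), with 15 of 31 calls in Col (48.4%), 0 of 41 in Ler and 0 of 6 in Cvi. In ARF3, the window at chr2:14327201-14327500 had 0 of 38 calls methylated in Col and 46.9% in Ler (23 of 49), and the window at chr2:14326001-14326300, nearer to the gene end, had 47.2% in Col (50 of 106) and 2.70% in Ler (1 of 37). In ARF19, chr1:6628801-6629100 had 22.1% in Col (25 of 113) and 77.5% in Ler (100 of 129), opposite in direction to the window printed above. ARF2 had a single called window (chr5:24912401-24912700, exons 8 to 9 of 15) with 34.6% in Col (18 of 52) and 95.9% in Ler (70 of 73). In ARF4, chr5:24310401-24310700 had 32.7% in Col (37 of 113) and 85.9% in Ler (73 of 85), and chr5:24309801-24310100 had 66.7% in Col (22 of 33) and 0 of 27 in Ler.

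Ler and Cvi were also compared in the endosperm, in libraries that the embryo comparison did not use, and the difference was found for part of the members. Of 56 windows tested, 9 were higher in the Ler x Ler endosperm and 0 in the Cvi x Cvi endosperm, where 10.2% and 0.422% of windows in all gene bodies were called. They lay in ARF1, ARF3, ARF5, ARF6 and ARF7. The second ARF5 window shown above had 19 of 20 calls methylated in the Ler x Ler endosperm (95.0%) and 0 of 91 in the Cvi x Cvi endosperm, which allows up to 3.30%. At the level of the gene 3 of 10 members were called higher in Ler and 0 in Cvi, where 20.5% and 0.966% of all genes were called. The called genes were ARF1, ARF3 and ARF7, of which ARF7 was not called between the Ler and Cvi embryos. ARF4, ARF6, ARF8 and ARF19 were called between those embryos but not between the endosperms. ARF1 had 32.7% (104 calls) against 12.2% (205 calls), ARF7 31.1% (135 calls) against 10.9% (377 calls), and ARF3 12.1% (91 calls) against 0 of 152 calls. ARF5, with 7.83% (115 calls) against 0.431% (232 calls), was under the minimum difference and was not called. With at least 30 calls required, no window was called.

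In hybrid embryos the ARF genes lay mostly between their parents. The hybrid level minus the mean of the selfed parents, over windows covered in all 3, had a median over the members of 1.32 points with Col as the female parent of Cvi hybrids (-5.10 to 9.07) and -4.96 points in the reverse cross (-12.5 to 4.06). It was 2.64 points in Ler x Cvi (0.141 to 11.5). By the deposited unweighted window means these medians were 1.51, -1.05 and 1.68 points, and the sign turned for ARF1 in Col x Cvi (-1.82), for ARF4 (-1.16) and ARF6 (0.267) in the reverse cross, and for ARF1 (-1.13) and ARF7 (-1.64) in Ler x Cvi. Between 7 and 9 of the 10 members lay between the parental levels in these 3 hybrids. ARF4 lay 9.07 points above the parental mean in Col x Cvi, with 22.2% (780 calls) against 24.8% in Col and 1.40% in Cvi, and 3.36 points above it by the unweighted means. ARF7 exceeded both parents in Ler x Cvi, with 46.5% (2391 calls) against 39.04% in Ler and 31.1% in Cvi. In the Cvi x Ler embryo, whose profile stood apart, the median was -1.44 points (-22.6 to 10.9).

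The windows that separated the parents were also read in the hybrids. They had been picked for a difference of at least 35 points between the same parental libraries that serve as bounds here. A level between such wide bounds is thus weak evidence, and some of the windows overlap. All 12 windows called higher in Col had an intermediate level in the Col x Cvi embryo and 10 in the Cvi x Col embryo. Their median was 62.0% in Col and 0% in Cvi, and 40.8% and 29.9% in these hybrids. Of the 8 windows higher in Ler, 7 were intermediate in Ler x Cvi, with a median of 42.2% between 73.0% in Ler and 2.27% in Cvi, and 3 in the Cvi x Ler embryo. The ARF1 window shown above had 49.5% in Col x Cvi (54 of 109) and 52.0% in Ler x Cvi (66 of 127). The ARF19 window had 38.8% in Col x Cvi (62 of 160) and 58.8% in Cvi x Col (30 of 51), and stayed low in Ler x Cvi (5 of 100), whose parents were both low. The first ARF5 window had 30.2% in Col x Cvi (19 of 63) and 0 of 128 calls in Ler x Cvi, whereas the second had 10.0% (12 of 120) and 35.3% (103 of 292). At these 2 ARF5 windows the exchange between Col and Ler was thus seen in Col x Cvi and Ler x Cvi. In Cvi x Col neither window had a methylated call (5 and 35 calls). Some other windows low in Ler were higher in Ler x Cvi. In ARF5, chr1:6890401-6890700 had 0% in Ler and 29.5% in Ler x Cvi (132 calls). In ARF4, chr5:24309601-24309900 had 0% in Ler and 37.7% in Ler x Cvi (138 calls).

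**Figure D3:**
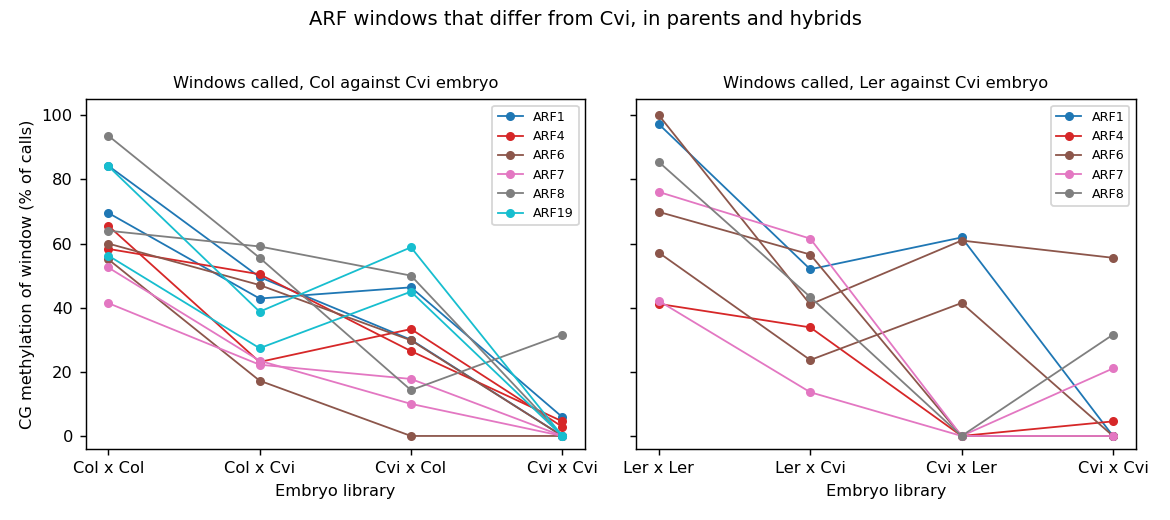
CG methylation (percent of calls, y axis) of the ARF windows called between Col and Cvi (left, 12 windows) and between Ler and Cvi (right, 8 windows) in the selfed and hybrid embryos (x axis), with 1 line for each window coloured by gene. In Col x Cvi all 12 windows lie between the parents, while 3 of 8 do in the Cvi x Ler embryo.

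The direction of the cross was compared in the hybrids of Col and Cvi. Of 146 windows tested between Col x Cvi and Cvi x Col, 0 were called in either direction, where 0.368% and 0.315% of windows in all gene bodies were called. The values of single genes still differed. ARF8 had 23.9% in Col x Cvi (1034 calls, 14 windows) and 9.30% in Cvi x Col (344 calls, 13 windows). ARF7 had 34.5% in Col x Cvi (1600 calls, 20 windows) and 21.9% in Cvi x Col (535 calls, 16 windows). Each level is over windows shared with the parents, and at ARF7 and ARF8 the 2 directions use unlike windows. Over these sets the Col parent itself had 42.2% and 38.5% at ARF7. ARF1, over 14 windows with the same parental calls in both directions, had 36.0% in Col x Cvi (764 calls) and 23.6% in Cvi x Col (364 calls). Only ARF3 (5.16% and 6.49%) and ARF19 (13.7% and 17.2%) were higher in Cvi x Col. The gaps were given no test at the level of the gene.

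Embryo and endosperm of 1 cross were compared to find differences between the tissues. In CG, most members were not called. In Ler, ARF8 was the only member called, with 34.2% in the embryo (178 of 520 calls, 30.3 to 38.4%) and 9.59% in the endosperm (7 of 73, 4.72 to 18.5%; exact test, adjusted p = 0.000134). Among all genes 7.83% were called higher in the Ler embryo and 1.38% higher in its endosperm. With the alternate set of windows ARF4 was called as well. In Cvi 0 of 10 members were called, where 6.43% of all genes were higher in embryo and 0.33% in endosperm. In Cvi the adjusted p of all members was above 0.01, and for ARF7 the difference was called with all overlapping windows (11.2 points higher in embryo, exact test, adjusted p = 0.000448). The median over the members was 3.44 points higher in embryo in Ler and 0.125 points in Cvi, against 0.328 and 0 over all genes.

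Single windows showed tissue differences in both directions. In Ler, 66 windows were tested, 1 was higher in embryo and 1 in endosperm, both in ARF4, against 2.13% and 0.412% of windows in all gene bodies. At chr5:24310601-24310900 the embryo had 41.2% (35 of 85) and the endosperm 0 of 22, and at chr5:24309601-24309900 the embryo had 0 of 21 and the endosperm 60.0% (9 of 15). In Cvi, 60 windows were tested, 3 were higher in embryo and 1 in endosperm, against 3.03% and 0.133%. The ARF6 window with 20 of 20 calls in the embryo had 38.4% in the endosperm (38 of 99), the ARF7 window with 92.9% had 51.1% (23 of 45), and ARF7 at chr5:7017201-7017500 had 86.7% in the embryo (13 of 15) and 11.1% in the endosperm (3 of 27). The window higher in endosperm was the ARF19 window printed above, with 0 of 30 calls in the Cvi x Cvi embryo and 56.3% in the Cvi x Cvi endosperm (9 of 16, 33.2 to 76.9%). None of these windows had 30 calls in both libraries. In the Cvi x Ler cross 83 windows were tested, 7 were higher in embryo and 2 in endosperm, against 6.36% and 3.11%. The 7 lay in ARF2, ARF3 and ARF6, and in 6 of them no call was methylated in the selfed embryos. In ARF2, chr5:24915001-24915300 had 19 of 45 calls methylated in the Cvi x Ler embryo and 0 of 120, 0 of 61 and 0 of 48 in Col, Ler and Cvi.

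Outside CG the ARF genes were nearly free of methylation in the embryo. CHG levels per member ranged from 0.178 to 0.707% in the Col x Col embryo, from 0.134 to 0.564% in Ler and from 0 to 0.779% in Cvi, and CHH levels from 0.111 to 0.705% over these 3 libraries. No CHG or CHH window of a member was called in any comparison of the selfed strains or of their tissues. Between Col and Ler 245 windows were tested in CHG and 245 in CHH, and 0.536% and 0.55% of windows in all gene bodies were called. For Col against Cvi these shares were 0.94% and 0.785%, and for Ler against Cvi 0.79% and 0.617%. For embryo against endosperm they were 0.311% and 0.452% in Ler and 0.377% and 0.666% in Cvi. The CHH rule asked for at least 10 points, 10 cytosines and 50 calls.

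ARF6 differed from the other members in the selfed endosperms of Ler and Cvi, where it carried CHG methylation. In the Col x Col endosperm, known here from window means of unknown depth, ARF8 was higher in CHG than ARF6 (values under Other observations). Over its gene body CHG was at 8.76% in the Ler x Ler endosperm (24 of 274 calls) and 8.15% in the Cvi x Cvi endosperm (71 of 871), whereas the embryos had 0.564% (14 of 2481) and 0.312% (1 of 321). The other 9 members had at most 1.51% in these 2 endosperms. In Cvi, 17 of 22 covered windows of ARF6 exceeded 5%, in its 5′ and its 3′ part, and in Ler 9 of 20. Of 26 windows in the Col embryo, and of 26 in the Ler embryo, 1 did. In the Cvi x Ler endosperm the level was only 1.18% (8 of 676), and in the Cvi x Col endosperm 2 of 20 calls were methylated. ARF6 CHH was 1.20% and 1.25% in the selfed endosperms, against 0.225% and 0.227% in the embryos.

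The test at the level of the gene for CHG and CHH, with no minimum difference, was added after these levels had been seen. Over every second window, ARF6 CHG in Ler was 7.30% in endosperm (10 of 137) and 0.349% in embryo (4 of 1146; exact test, adjusted p = 2.25e-05 after adjustment), and 0.186% of all genes were called in this direction. In Cvi it was 7.69% (38 of 494) against 0 of 128, which missed the threshold (exact test, adjusted p = 0.0123), where 0.376% of all genes were called. It was called in Cvi with the alternate set of windows (exact test, adjusted p = 0.000698), all overlapping windows (1.58e-07) and windows wholly inside the gene (0.00966). No CHH difference of ARF6 was called over every second window. Counts are small, and the calls of a window come from few molecules. One of the windows is shown, with CHG on the printed strand in capitals. The window holds 32 CHG cytosines on both strands together, and those of the other strand are not all within the capitals. It lies wholly in exon 12 of 14 and had 5 of 25 CHG calls methylated in the Ler x Ler endosperm (20.0%) and 4 of 23 in the Cvi x Cvi endosperm (17.4%).
ARF6 chr1:10687001-10687300: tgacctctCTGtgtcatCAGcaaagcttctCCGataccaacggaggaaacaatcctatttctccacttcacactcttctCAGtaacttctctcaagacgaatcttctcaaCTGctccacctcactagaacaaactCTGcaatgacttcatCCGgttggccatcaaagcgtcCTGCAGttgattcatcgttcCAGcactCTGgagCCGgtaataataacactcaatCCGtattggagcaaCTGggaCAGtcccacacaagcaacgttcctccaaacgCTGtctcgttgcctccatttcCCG

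**Figure D4:**
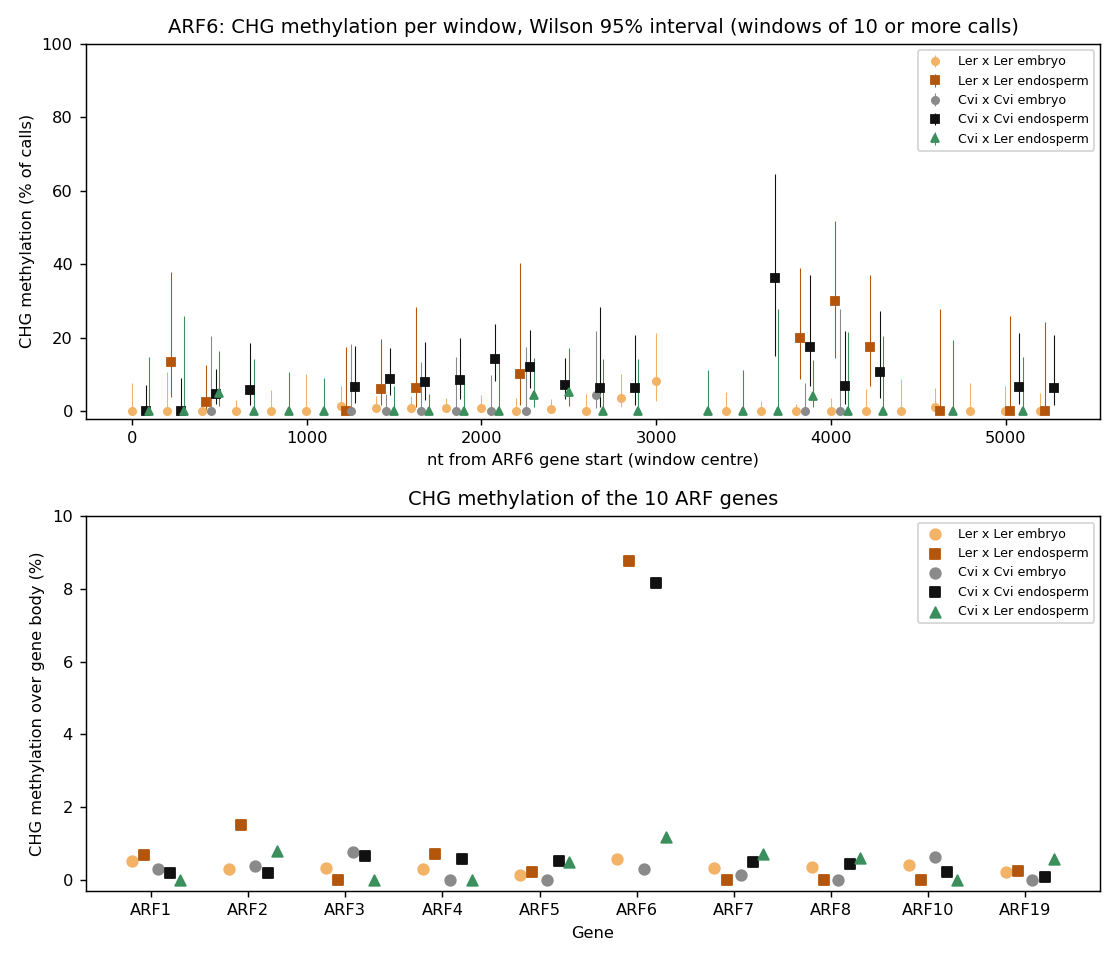
Upper panel: CHG methylation (percent of calls, y axis) of ARF6 windows with at least 10 calls against distance from the gene start (nt, x axis), with Wilson 95% intervals as bars, in the selfed embryos and endosperms of Ler and Cvi and in the Cvi x Ler endosperm. Lower panel: CHG level over the gene body of all 10 ARF genes in the same libraries, where only ARF6 in the endosperms of Ler (8.76%) and Cvi (8.15%) exceeds 2%.

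The flanks of most ARF genes held little methylation. Within 1 kb on either side, CG levels of the selfed embryos were at most 2.33%, except downstream of ARF1 and ARF5 and on both sides of ARF8, where the downstream side had 16.9% in Ler. Downstream of ARF1 and ARF5, where neighbouring genes overlap the gene end by 6 and 23 nt, levels were high: 41.1%, 84.7% and 11.7% in Col, Ler and Cvi at ARF1, and 86.2%, 97.2% and 96.4% at ARF5. Upstream of ARF8, one window (chr5:14628601-14628900, its centre 703 nt before the gene start) was methylated in CG and in CHG. CG reached 92.7% in Col (51 of 55), 93.6% in Ler (44 of 47) and 93.5 to 97.8% in the hybrid embryos other than Cvi x Ler, which had 35.7% (10 of 28). CHG was 46.0% in Col (29 of 63), 48.7% in Ler (38 of 78) and 66.9 to 75.7% in these hybrids. CHH was 11.1% in Col and 7.32% in Ler. The Cvi x Cvi embryo had no CG or CHG calls there, and the Cvi x Cvi endosperm had 46.8% in CG (22 of 47) and 28.1% in CHG (18 of 64). The transcribed pseudogene AT5G37017, 606 nt upstream of ARF8, overlaps the window. The window is shown with its 6 CG sites in capitals because all 3 contexts were methylated there in Col and Ler.
ARF8 upstream chr5:14628601-14628900: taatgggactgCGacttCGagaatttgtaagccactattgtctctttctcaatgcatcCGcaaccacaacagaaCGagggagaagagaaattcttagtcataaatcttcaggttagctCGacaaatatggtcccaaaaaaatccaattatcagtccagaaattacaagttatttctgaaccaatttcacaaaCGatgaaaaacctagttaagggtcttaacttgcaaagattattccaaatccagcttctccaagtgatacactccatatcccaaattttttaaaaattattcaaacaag

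The sites by which microRNAs find ARF6, ARF8 and ARF10 are coding sequence and could be set beside the methylation. Mature sequences were taken from the annotated loci in the TAIR10.1 genome and are written with T, with the seed (bases 2 to 8) in capitals. Sites are transcript sequence, with capitals at the bases that pair with the microRNA.
miR167a: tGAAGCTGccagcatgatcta
ARF6 site chr1:10686478-10686498: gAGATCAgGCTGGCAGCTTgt
ARF8 site chr5:14633841-14633861: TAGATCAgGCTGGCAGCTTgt
miR160a: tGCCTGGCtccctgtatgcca
ARF10 site chr2:12115741-12115761: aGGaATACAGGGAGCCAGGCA

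The windows over the miR167 sites were methylated in CG in Col and Ler. At ARF6, 72 of 112 calls in Col and 43 of 112 in Ler were methylated over 2 overlapping windows, and Cvi had no calls. At ARF8 the counts were 41 of 86 in Col, 63 of 155 in Ler and 0 of 16 in Cvi. The window over the miR160 site of ARF10 had 1 of 55, 0 of 94 and 0 of 26 calls methylated.

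The other genes of the auxin response were counted by the same rules. The list held 45 genes, namely the TIR1/AFB receptors, the Aux/IAA repressors, the TOPLESS co-repressors and the remaining ARF genes that were measured apart from the members. Of 43 tested between Col and Cvi, 9 had more in Col and 0 more in Cvi, and of 43 tested between Ler and Cvi, 11 were higher in Ler and 0 in Cvi. These shares, 9 of 43 and 11 of 43, were near those over all genes, 22.3% and 22.5%. All 5 TOPLESS co-repressor genes were higher in Col and in Ler than in Cvi, with a median of 42.9% in Col and 9.40% in Cvi. TPL, the founding co-repressor, was at 46.9% in Col, 61.7% in Ler and 5.41% in Cvi, WSIP2 (TPR4) had 26.9%, 30.7% and 2.06%, TPR2 39.2%, 41.9% and 9.40%, TPR3 49.5%, 53.2% and 32.6%, and TPR1 42.9%, 44.6% and 26.2%. Of the 5 remaining ARF genes 2 were called higher in Col and 3 in Ler. ARF11 was at 31.5% in Col and 19.3% in Ler, against 1.64% in Cvi over the windows shared with Col, whereas ARF17 (0.330% in Col, 3.87% in Cvi) and ARF18 (2.65% in Col, 4.96% in Cvi) were not called. The Aux/IAA genes were mostly unmethylated, with a median of 0.519% in Col, and of 27 tested 0 were called between Col and Cvi and 2, IAA5 and IAA13, were higher in Ler than in Cvi. Between Col and Ler, 2 of 29 were higher in Ler, IAA13 and IAA32.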

How the data were processed

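Per the methods of the study, bisulfite reads were aligned with Bismark to TAIR10, to a Ler genome (with coordinates then converted to TAIR10) or to a Cvi-substituted TAIR10, redundant reads were removed, and each cytosine needed at least 5 reads. Versions were not given in the sources used here. The deposited files give, for windows of 300 nt every 200 nt, the count of methylated and unmethylated calls made by the authors, and further deposited files give the unweighted mean percent methylation of each window.

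Levels here are methylated calls as a percent of all calls, pooled over windows overlapping a gene body. Calls in the overlap of neighbouring windows count in both, except in the main gene tests, which used every second window. Gene bodies and exons came from the RefSeq annotation of TAIR10.1, whose nuclear chromosomes have the lengths of TAIR10. Libraries were compared with two-sided Fisher's exact tests and Benjamini-Hochberg adjustment over all nuclear windows or all protein-coding genes (threshold 0.01), in Python 3.11.15 with numpy 2.4.6, pandas 2.3.3, statsmodels 0.14.6 and numba 0.67.0. The scripts were tested on simulated data. Calls in a window share reads, so p-values compare libraries and treat the calls as independent.

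The members and lists were chosen with earlier results of these data known. In each member, the window described in full was the called window with the most calls in the shallowest selfed embryo. Other called windows, and the gene test in CHG and CHH, were added after values were seen. Alternatives were other minimum calls and cytosines, thinning of the deeper library, other sets of windows and the unweighted means.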

Additional observations from a re-analysis of the deposited data

Results flagged for a closer look

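ARF4 CG methylation moved in opposite directions between tissues in Ler and Cvi. In Ler the embryo had 37.3% (120 of 322 calls) and the endosperm 22.2% (28 of 126), a difference of 15.0449 points (Fisher's exact test, adjusted p = 0.0208). In Cvi the embryo had 1.77% (2 of 113) and the endosperm 12.8% (15 of 117), a difference of -11.0506 points (Fisher's exact test, adjusted p = 0.0185). Neither passed the threshold of 0.01, each tissue is 1 library, and the difference between the 2 strains was not tested.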

How the results depend on the processing

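No gene-level call of a member between selfed embryos, or between tissues of Ler or Cvi, turned direction with other sets of windows. The gene-level calls between the Ler and Cvi endosperms were not repeated with those sets. The sign of the hybrid minus the parental mean turned for some members with the unweighted means. These were 1, 2 and 2 members in Col x Cvi, its reverse cross and Ler x Cvi. The counts of windows moved with the depth required. With at least 30 calls, windows with Col above Cvi numbered 3 and those with Ler above Cvi 1, and with 5 calls and no cytosine minimum 28 and 19. With the deeper library thinned to the shallower they numbered 2 and 1. The windows higher in the Ler than in the Cvi endosperm numbered 0 with 30 calls and 14 with 5 calls. With 30 calls, windows higher in embryo and windows higher in endosperm, over the 6 crosses other than Cvi x Ler, numbered 0 and 0, and those called in Cvi x Ler 2. Members higher in Col than in Ler numbered 1 with the other set of every second window, 1 with all overlapping windows and 3 with windows wholly in the gene body. Members higher in embryo in Ler numbered 2 with the other set and 2 with all overlapping windows, and in Cvi 1 with all overlapping windows. These changes come with other windows, or fewer calls, entering the tests. No paired analysis was possible because the labels give no replicate numbers that groups could share. Embryo and endosperm were compared within each cross, and a test over crosses was not made. The number of counted calls limits the comparisons. The Cvi x Cvi embryo had 168 to 380 CG calls per member, the Ler x Ler endosperm 119 to 317, and the endosperms with the fewest counted calls 0 to 49.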

Other observations

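The deposited window means of the Col x Col endosperm, which carry no call counts, cover more windows than its count file, so their depth is unknown and no test was made. In these means ARF6 had 6.58% in CHG over 17 windows, against 0.522% in the Col x Col embryo, and ARF8 had 7.14% over 14 windows. ARF3 had 3.75% and the other members 0. In CHH, ARF8 had 6.19% over 19 windows and ARF6 0.680%.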
